A study of Mus musculus with 6 samples.

Results

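The integrated stress response genes and the cytosolic aminoacyl-tRNA synthetases were followed in BCR-ABL positive mouse cell lines labelled knockout or wild type for CDK6, the cyclin-dependent kinase that drives entry into the cell cycle together with D-type cyclins. The set held 37 genes, listed by symbol, of the 25899 symbols in the count table. It was made of 8 stress response regulators, 9 enzymes of amino acid metabolism and 20 synthetases, and all 37 had a row in the table. The KO group was made of 3 BCR-ABL positive lines electroporated with the Cas9-GFP plasmid px458-hCDK6del carrying guides against CDK6 (KO1, KO2 and KO3), whose sequences are not given in the labels. The WT group was made of 3 BCR-ABL positive lines with wild-type Cdk6, and the control plasmid was px458 (WT1, WT2 and WT3). All 6 lines carry BCR-ABL and were grown in the same serum-containing RPMI medium. By the protocol, GFP positive cells were sorted and plated singly, outgrowing clones were picked and loss of the CDK6 protein was checked by Western blot, so that each KO library stands for a line grown from a cloned cell. The labels do not say whether libraries of a group came from separate parental cultures, and p-values here measure the spread between these libraries.

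The integrated stress response begins when a stress-sensing kinase phosphorylates the translation initiation factor eIF2. General protein synthesis then slows while the mRNA of the transcription factor ATF4 is translated more, through short open reading frames ahead of its coding sequence. ATF4 pairs with C/EBP family proteins and raises genes for amino acid synthesis, amino acid uptake and tRNA charging. Its feedback arm includes the pseudokinase TRIB3 and the phosphatase subunit GADD34, encoded by Ppp1r15a, which restores eIF2. Because ATF4 is controlled mainly in translation, its mRNA level need not follow its activity. Aminoacyl-tRNA synthetases load each tRNA with its amino acid, and part of the cytosolic ones sit in a multi-enzyme complex with scaffold proteins. In B-lineage leukaemia this response is known as a source of resistance to amino acid depletion, since ASNS makes the asparagine that asparaginase treatment removes.

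The libraries held between 17859519 and 24108563 counts, and 3 counts were worth 0.124 to 0.168 CPM (counts per 1000000 counts of the library). Library KO2 stood apart. The first principal component carried 67.9% of the variance and placed KO2 at 112 and WT2 at 12.6, while the other 4 libraries lay between -38.4 and -28.3. Cdk6 RNA was not lower in the KO lines, with 42.1, 72.6 and 40.4 CPM in KO1, KO2 and KO3 and 39.5, 45.0 and 55.8 CPM in the WT lines 1, 2 and 3 (log2 fold change KO over WT 0.14 ± 0.29 SE, adjusted p = 0.90, edgeR), so the RNA gave no check of the knockout labels. The 8 early B-lineage markers summed to 3600 to 5017 CPM in KO and 4268 to 4442 CPM in WT libraries. The 8 myeloid markers, 4 of them at 0 in every library, summed to 15.96 to 43.4 CPM in KO and 28.2 to 43.9 CPM in WT libraries. The 8 T-lineage markers, 4 of them at 0, summed to 1.29 to 82.9 CPM in KO and 64.9 to 67.5 CPM in WT libraries, and the 6 erythroid markers, 3 of them at 0, to 0.892 to 6.94 CPM in KO and 4.15 to 5.48 CPM in WT libraries. The T-lineage sum was mostly Lck, with 81.8, 0.397 and 48.1 CPM in KO1, KO2 and KO3 and 64.4, 66.5 and 64.8 CPM in WT1, WT2 and WT3. The other T-lineage markers were at most 0.944 CPM in any library. Outside KO2 the erythroid sum was mostly Gata1, with 4.12 CPM in KO3. KO2 was the lowest library in each of the 4 marker sums. KO3 was at 4215 CPM for B-lineage, 20.3 for myeloid, 48.4 for T-lineage and 4.31 for erythroid markers, and the part of other cells in its values was not tested.

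Many ATF4 targets carry a C/EBP-ATF response element near their start. The letters TGATGNAA, part of that element, were searched on both strands of the RefSeq promoter windows of GRCm38, which run from 250 bases before to 50 bases after each annotated start. They were found in 12 of the 29 members with a window (41.4%), against 3.97% of all 32851 windows and 2.71% of the 8594 tested genes with a window. Part of the members were listed as ATF4 targets, so the higher share is not independent of how the list was made. By role they were found in 3 of 8 regulators, 4 of 8 amino acid enzymes and 5 of 13 synthetases with a window. The following 4 members with a match are shown because they are among those with the largest differences between libraries in the results. Cebpg, with KO3 at 3.13 times the next library, had a window without a match, and Cth had no window. In the sequences the capitals mark the matched letters, on either strand. Sequences run 5′ to 3′ along the gene's strand and are RefSeq reference sequence, at chr2:119351014-119351091 (plus strand) for Chac1, chr2:152344029-152344056 (minus strand) for Trib3, chr6:7693210-7693267 (minus strand) for Asns and chr11:120643809-120643886 (minus strand) for Pycr1.
Chac1: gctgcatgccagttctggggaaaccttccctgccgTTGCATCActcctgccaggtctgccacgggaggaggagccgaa
Trib3: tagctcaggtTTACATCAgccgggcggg
Asns: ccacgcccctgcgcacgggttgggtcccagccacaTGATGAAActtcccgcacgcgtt
Pycr1: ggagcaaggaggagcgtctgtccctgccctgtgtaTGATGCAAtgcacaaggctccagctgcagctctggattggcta
The match began 193 bases before the start of Chac1, 23 before that of Asns and 103 before that of Pycr1, and at base 15 after the start of Trib3. The synthetases with a match were Aars, Gars, Iars, Tars and Yars, for example Aars at chr8:111033695-111033772 (plus strand) and Tars at chr15:11399659-11399708 (minus strand).
Aars: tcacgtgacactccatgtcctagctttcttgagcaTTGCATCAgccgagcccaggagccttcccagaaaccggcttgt
Tars: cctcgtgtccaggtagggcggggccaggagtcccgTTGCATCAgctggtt
Got1, Pck2 and Vldlr also held a match. A match describes letters in the reference and was not tested as a binding site.

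The first comparison asked whether the module differed between the lines labelled KO and WT, and no member passed edgeR's test. Of the 37 genes, 36 had enough counts to be tested among 10896 genes, and Vldlr, a lipoprotein receptor, had 0 counts in all 6 libraries. None of the 36 had an adjusted p under 0.05 with edgeR's quasi-likelihood test, where 0% of all tested genes did, and their adjusted p-values ran from 0.544 to 0.999. None had an unadjusted p under 0.05 either, against 9.45% of all tested genes. DESeq2 called 0 members with 1.94% of all genes called, also 0 without KO3 (2.12% of all genes) and 0 without WT2 (2.42%), but 1, Chac1, without KO2 (5.95%) and without WT2 and KO2 (2.89%). The limma-voom fit called 0 members, with adjusted p-values from 0.563 to 0.996. In bulk RNA, fewer expressing cells and less RNA per cell cannot be told apart.

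The widest differences in the module lay in 1 KO line, KO3. In TMM-scaled log2 CPM, the regulators' median from the WT mean was 0.01 in KO1, -0.36 in KO2 and 0.68 in KO3. The median of the amino acid enzymes was -0.1 in KO1, 0.06 in KO2 and 0.69 in KO3. The WT lines also varied, and WT2 lay above KO1 and KO2 in both lists. In WT1, WT2 and WT3 the medians were -0.10, 0.16 and -0.06 for regulators and -0.13, 0.23 and -0.11 for enzymes. With 1 line like KO3, what set KO3 apart cannot be told and was not tested. KO3 was the highest of the 6 libraries for 26 of the 36 tested members, where 28.9% of all tested genes had their highest value in KO3. These were 6 of 7 regulators, 8 of 9 amino acid enzymes and 12 of 20 synthetases. In 7 members KO3 was at least 1.5 times the highest of the other 5 libraries, where 2.02% of all tested genes were, and in 5 it was at least 2 times, where 0.606% were. Both limits were chosen after the values were seen. In no other library did any member lie 1.5 times above all others, where 6.43% of tested genes did so in KO2, 0.863% in KO1, 0.358% in WT1, 0.395% in WT2 and 0.239% in WT3.

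**Figure D1:**
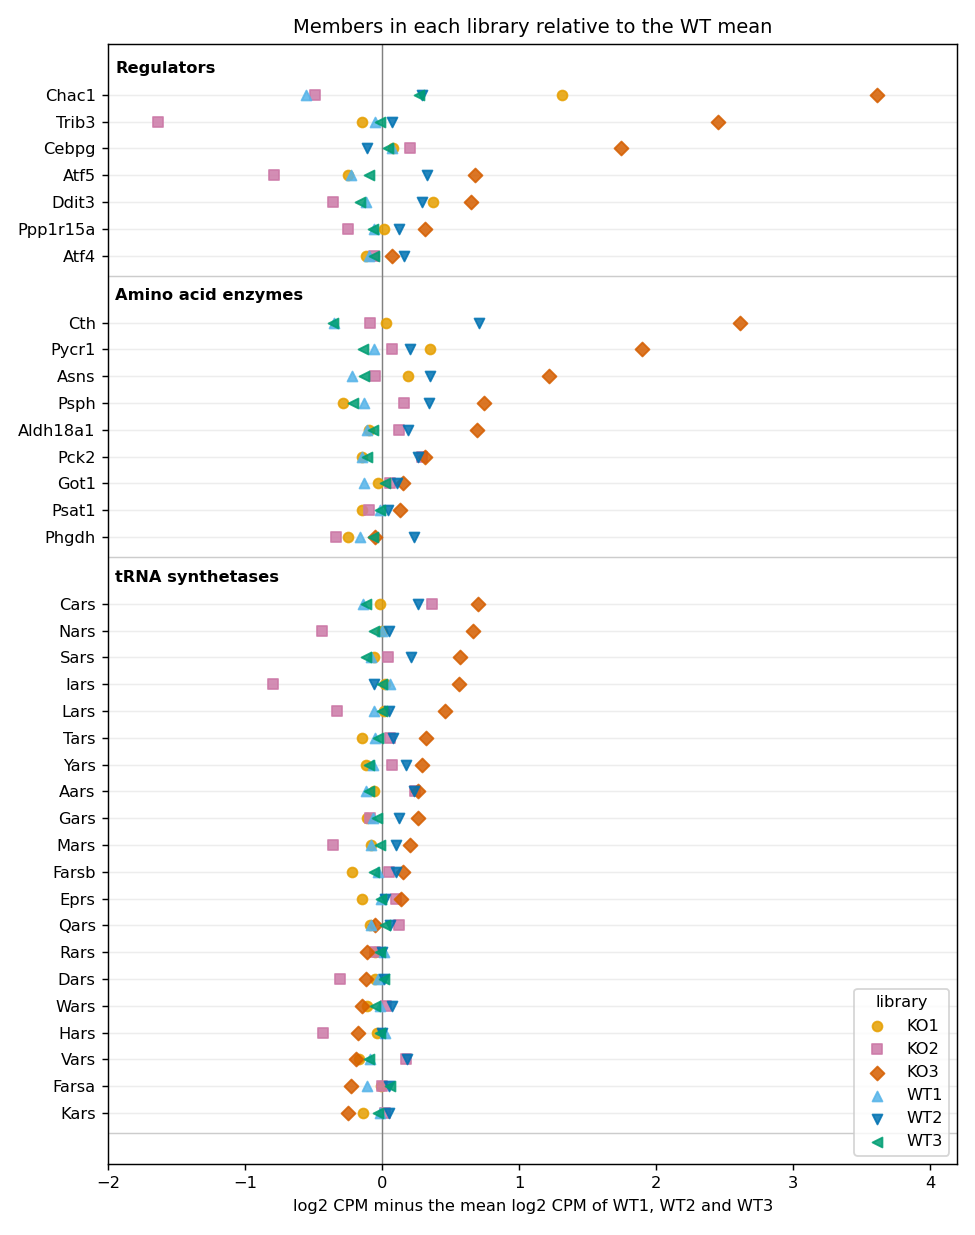
Log2 CPM of each tested member in each library minus the mean log2 CPM of WT1, WT2 and WT3, in CPM scaled by TMM factors with a prior count of 2, with members down the page by role and 1 symbol per library. The KO3 diamonds lie farthest right for 26 of 36 members, most of all for Chac1, Cth and Trib3, and the KO2 squares lie farthest left for Trib3, Atf5 and Iars.

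Among the regulators, Chac1, an enzyme that breaks down glutathione and a late target of the ATF4 and CHOP pathway, had the largest fold change. It had 3.53, 0.892 and 18.03 CPM in KO1, KO2 and KO3, against 0.871, 1.63 and 1.63 CPM in WT1, WT2 and WT3. These values rest on 63, 18 and 368 counts in the KO and 21, 31 and 33 counts in the WT libraries. KO3 was 5.11 times the highest other library, KO1 was next, and KO2 lay within the WT range, so the groups overlapped. The KO over WT log2 fold change was 2.39 ± 1.07 (SE, 95% interval -0.26 to 5.03), with an adjusted p of 0.544 in edgeR. Without KO3 it was 0.66, with the replicate block 1.63 and in limma-voom 1.58. With KO2 left out, DESeq2 gave 2.92 with an adjusted p of 0.00422, in a fit that called 5.95% of all genes, and with WT2 and KO2 both left out it gave 3.07 with an adjusted p of 0.00674, in a fit that called 2.89%. Chac1 was the only member called in those 2 fits. In the same 2 settings edgeR did not call it, with adjusted p-values of 0.194 and 0.274.

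Trib3, the pseudokinase that restrains ATF4 and AKT, had 11.8, 3.92 and 73.1 CPM in KO1, KO2 and KO3, against 12.3, 13.3 and 12.7 CPM in WT1, WT2 and WT3. The 3 WT lines were nearly equal, while among the KO lines KO3 lay far above them and KO2 below them. Its fold change KO over WT was 1.16 ± 0.99 on the log2 scale (SE, 95% interval -1.30 to 3.62), with an adjusted p of 0.736 in edgeR. With the replicate block it was 0.19, in limma-voom 0.27, and without KO3 its sign turned, to -0.72. Cebpg, a C/EBP factor that pairs with ATF4, had 30.2, 31.0 and 97.1 CPM in the KO lines, against 29.2, 25.5 and 28.6 CPM in the WT lines. It was the only tested member whose KO libraries all lay above its WT libraries, which 10.6% of all tested genes did, but KO1 and WT1, the nearest libraries, were at 30.2 and 29.2 CPM. Its log2 fold change was 0.89 ± 0.48 (SE, 95% interval -0.29 to 2.07), with an adjusted p of 0.596 in edgeR, and 0.14 without KO3.

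Atf4 itself did not stand out in KO3. It had 366, 363 and 426 CPM in KO1, KO2 and KO3, against 364, 429 and 374 CPM in the WT lines, where WT2 was the highest of all 6. Atf4 had a log2 fold change of -0.04 ± 0.09 (SE, 95% interval -0.27 to 0.20), with an adjusted p of 0.916 in edgeR. Ddit3, which encodes the stress factor CHOP, had 11.6, 6.59 and 14.3 CPM in the KO lines, against 8.005, 10.6 and 7.81 CPM in the WT lines. KO3 was the highest library and KO2 the lowest, and the groups overlapped (log2 fold change 0.27 ± 0.30 SE, 95% interval -0.48 to 1.02, adjusted p = 0.807, edgeR). Ddit3 overlaps Mars in the annotation, and how strand was counted is not given in the sources used here.

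The other 2 tested regulators were also highest in KO3. Atf5, a factor related to ATF4 and likewise controlled in translation, had 25.4, 16.5 and 49.1 CPM in the KO lines and 25.2, 36.7 and 27.5 CPM in the WT lines. Ppp1r15a, the GADD34 phosphatase subunit, had 24.9, 19.7 and 31.1 CPM in the KO lines and 23.1, 26.0 and 23.1 CPM in the WT lines. For both, KO2 was the lowest library. The regulators' median log2 fold change KO over WT was 0.27, against 0.01 over all tested genes, with 5 of 7 above 0. Without KO3 the median was -0.09, without KO2 it was 0.51, and without both WT2 and KO2 it was 0.67.

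**Figure D2:**
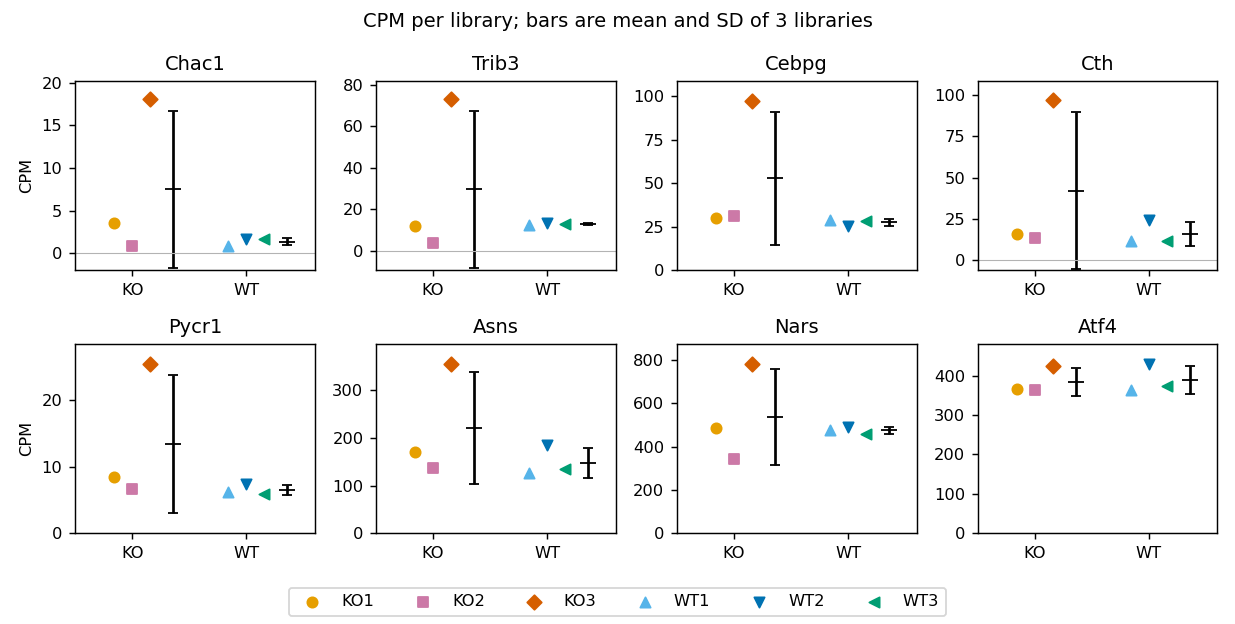
CPM of 8 members in each library, KO on the left and WT on the right of each panel, with bars for the mean and SD of 3 libraries on linear axes that differ between panels. KO3 is set off from every other library in 7 panels, and in the Atf4 panel all 6 libraries lie between 363 and 429 CPM.

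Enzymes of amino acid metabolism were also highest in KO3, with 1 exception among 9. Cth, which makes cysteine from cystathionine, had 15.8, 13.8 and 96.9 CPM in KO1, KO2 and KO3, against 11.9, 24.6 and 11.8 CPM in WT1, WT2 and WT3. KO3 was 3.95 times the next library, which was WT2, and KO1 and KO2 lay within the WT range. For Cth the log2 fold change came to 1.34 ± 0.84 (SE, 95% interval -0.75 to 3.43), with an adjusted p of 0.641 in edgeR. It was 0.80 with the replicate block, 0.93 in limma-voom and -0.12 without KO3. Pycr1, which completes proline synthesis in mitochondria, had 8.46, 6.59 and 25.4 CPM in the KO lines, against 6.18, 7.35 and 5.88 CPM in the WT lines. KO1 and KO3 lay above every WT line and KO2 lay among them. Its log2 fold change was 1.02 ± 0.53 (SE, 95% interval -0.29 to 2.32), with an adjusted p of 0.585 in edgeR, and 0.21 without KO3.

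Asns, asparagine synthetase, had 171, 138 and 355 CPM in the KO lines, against 126, 185 and 135 CPM in the WT lines. KO3 was 1.92 times the next library, WT2, and the groups overlapped. On the log2 scale, Asns differed by 0.54 ± 0.37 (SE, 95% interval -0.37 to 1.46), with an adjusted p of 0.664 in edgeR, and 0.05 without KO3. Phgdh, the entry enzyme of serine synthesis, was the amino acid enzyme for which KO3 was not the highest library. It had 128, 114 and 149 CPM in the KO lines, against 133, 173 and 142 CPM in the WT lines (log2 fold change -0.22 ± 0.13 SE, 95% interval -0.55 to 0.11, adjusted p = 0.632, edgeR).

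The rest of the serine pathway showed a graded picture in KO3. Psat1, the aminotransferase after Phgdh, had 343, 338 and 425 CPM in the KO lines and 367, 379 and 367 CPM in the WT lines. Psph, the phosphatase that releases serine, had 43.9, 56.9 and 91.3 CPM in the KO lines and 48.0, 65.8 and 45.7 CPM in the WT lines. Relative to the WT mean, KO3 was thus at 1.00 times for Phgdh, 1.145 times for Psat1 and 1.72 times for Psph. In proline synthesis, Aldh18a1, the enzyme ahead of Pycr1, had 262, 289 and 462 CPM in the KO lines and 253, 308 and 261 CPM in the WT lines, with KO3 1.498 times the next library. Got1, the cytosolic aspartate aminotransferase, had 128, 129 and 146 CPM in the KO lines and 116, 136 and 129 CPM in the WT lines. Pck2, the mitochondrial phosphoenolpyruvate carboxykinase, had 299, 386 and 417 CPM in the KO lines and 291, 384 and 301 CPM in the WT lines, and KO3, KO2 and WT2 were its 3 highest libraries. The median log2 fold change of the 9 enzymes was 0.24, with 7 above 0, and 0.01 without KO3.

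**Figure D3:**
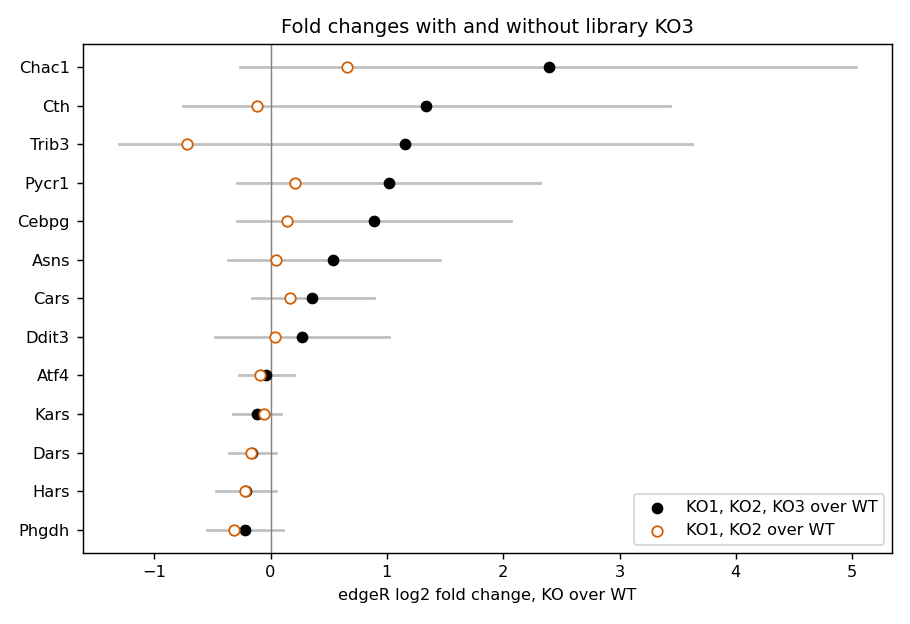
edgeR log2 fold change KO over WT for 13 members, with all KO lines (filled points, grey lines for the 95% interval) and without KO3 (open points). The interval covers 0 for all 13, and without KO3 the points of Trib3 and Cth lie below 0.

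The cytosolic synthetases differed little between genotypes. Their log2 fold changes KO over WT ran from -0.21 to 0.36, with a median of 0.01, 11 above 0 and 9 below. Cars, which charges cysteine tRNA, had the highest, with 115, 142 and 193 CPM in KO1, KO2 and KO3, against 103, 135 and 105 CPM in WT1, WT2 and WT3. KO2 and KO3 lay above every WT line and KO1 did not (0.36 ± 0.21 SE, 95% interval -0.16 to 0.89, adjusted p = 0.619, edgeR). At the other end, Hars, for histidine, had 258, 187 and 238 CPM in the KO lines, against 263, 256 and 256 CPM in the WT lines (-0.21 ± 0.11 SE, 95% interval -0.47 to 0.05, adjusted p = 0.579, edgeR). KO2 was the low library and KO1 lay among the WT lines. Hars overlaps its mitochondrial counterpart Hars2 in the annotation.

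Dars, for aspartate, had 213, 167 and 205 CPM in the KO lines, against 210, 214 and 217 CPM in the WT lines, with KO2 again the lowest (-0.16 ± 0.08 SE, 95% interval -0.36 to 0.05, adjusted p = 0.593, edgeR). Kars, for lysine, had 461, 488 and 435 CPM in the KO lines, against 488, 508 and 486 CPM in the WT lines, with KO2 inside the WT range (-0.12 ± 0.08 SE, 95% interval -0.32 to 0.09, adjusted p = 0.668, edgeR). Rars, for arginine, was the only tested member whose KO libraries all lay below its WT libraries, which 8.68% of all tested genes did. It had 231, 219 and 226 CPM in the KO lines, against 235, 232 and 232 CPM in the WT lines, and the nearest libraries were KO1 at 230.6 and WT2 at 231.8 CPM. Taking both directions, 2 tested members had groups that did not overlap, where 19.3% of all tested genes had. With CPM scaled by TMM factors, Hars and Dars also had all KO libraries below all WT libraries, where 11% of all tested genes did, and Cebpg was again the only one above, where 8.51% did. Taken by replicate number in plain CPM, a reading chosen after seeing the data, KO was below WT in all 3 pairs for 5 members, Wars, Hars, Vars, Kars and Rars, where 16.9% of all tested genes were. KO was above WT in all 3 pairs for 3 members, Cebpg, Pck2 and Cars, where 20.7% were.

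Within KO3 the synthetases differed among themselves. Levels given relative to the WT mean on the log2 scale, here and in what follows, are of CPM scaled by TMM factors with a prior count of 2, unlike the plain CPM of single libraries. On that scale 12 synthetases were higher by 0.14 to 0.70, namely Cars, Nars, Sars, Iars, Lars, Tars, Yars, Aars, Gars, Mars, Farsb and Eprs, and these 12 were also the ones highest in KO3. The other 8, Qars, Rars, Dars, Wars, Hars, Vars, Farsa and Kars, lay between -0.25 and -0.05, but in plain CPM Qars was at 1.01 times the WT mean. Nars, for asparagine, was the synthetase with KO3 most set off, with 488, 341 and 781 CPM in the KO lines, against 476, 489 and 459 CPM in the WT lines. Sars, for serine, had 187, 190 and 295 CPM in the KO lines and 180, 218 and 176 CPM in the WT lines. The 2 subunits of phenylalanine synthetase fell on either side, with Farsb at 136, 155 and 179 CPM in the KO and 150, 163 and 148 CPM in the WT lines, and Farsa at 145, 139 and 127 CPM in the KO and 132, 147 and 149 CPM in the WT lines. The 8 synthetases of the multi-synthetase complex had medians relative to the WT mean of 0.05 in KO3 and -0.18 in KO2, and the other 12 had medians of 0.26 in KO3 and 0.04 in KO2. Over all KO lines the median log2 fold changes were -0.03 for the 8 and 0.06 for the 12, and the difference was not tested.

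Of the remaining 9 synthetases KO3 was the highest library for 6. Tars, for threonine, had 203, 222 and 286 CPM in the KO and 212, 230 and 215 CPM in the WT lines, and Yars, for tyrosine, had 192, 207 and 260 CPM in the KO and 194, 227 and 191 CPM in the WT lines. Aars, for alanine, had 379, 442 and 482 CPM in the KO and 353, 446 and 361 CPM in the WT lines, and Gars, for glycine, had 417, 400 and 546 CPM in the KO and 416, 470 and 427 CPM in the WT lines. In each of these 4, KO3 was the highest and WT2 was the highest of the WT lines. Eprs, for glutamate and proline, had 507, 569 and 628 CPM in the KO and 543, 550 and 544 CPM in the WT lines, and Mars, for methionine, had 236, 184 and 292 CPM in the KO and 230, 258 and 241 CPM in the WT lines. Wars, for tryptophan, had 184, 192 and 181 CPM in the KO and 191, 201 and 187 CPM in the WT lines. Vars, for valine, had 811, 970 and 811 CPM in the KO and 835, 998 and 834 CPM in the WT lines, so that KO2 and WT2 shared the higher level. Qars, for glutamine, had 182, 200 and 191 CPM in the KO and 178, 196 and 192 CPM in the WT lines, and KO3 lay inside the WT range.

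KO2 was the lowest library for 15 of 36 members, near the 39.3% of all tested genes, and 4 synthetases low there lay beside other genes that were low there. Iars, the isoleucine synthetase on chromosome 13, had 383, 205 and 564 CPM in KO1, KO2 and KO3, against 385, 349 and 369 CPM in WT1, WT2 and WT3. In KO2 it was -0.80 from the WT mean on the log2 scale, and the median of 38 genes within 5 Mb, counting those of mean 5 CPM or more, was -0.74. Lars, for leucine, had 352, 263 and 490 CPM in the KO lines and 328, 350 and 343 CPM in the WT lines. It lies on chromosome 18 with Nars and Hars, and the 3 were at -0.33, -0.44 and -0.43 in KO2, with neighbour medians of -0.44, -0.54 and -0.50. For the other members the neighbour medians in KO2 lay between -0.12 and 0.14. Trib3 and Atf5, at -1.64 and -0.79 in KO2, had neighbour medians of -0.06 and -0.12. The synthetases Mars and Dars were also low in KO2, at -0.36 and -0.31, with neighbour medians of 0.05 and -0.02. In KO3 every neighbour median lay between -0.15 and 0.12, so the members high there were not beside genes that were high as a group. KO2 was at most 1/1.5 of the lowest other library for Trib3, Atf5 and Iars, that is 3 members, where 10.8% of all tested genes were.

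**Figure D4:**
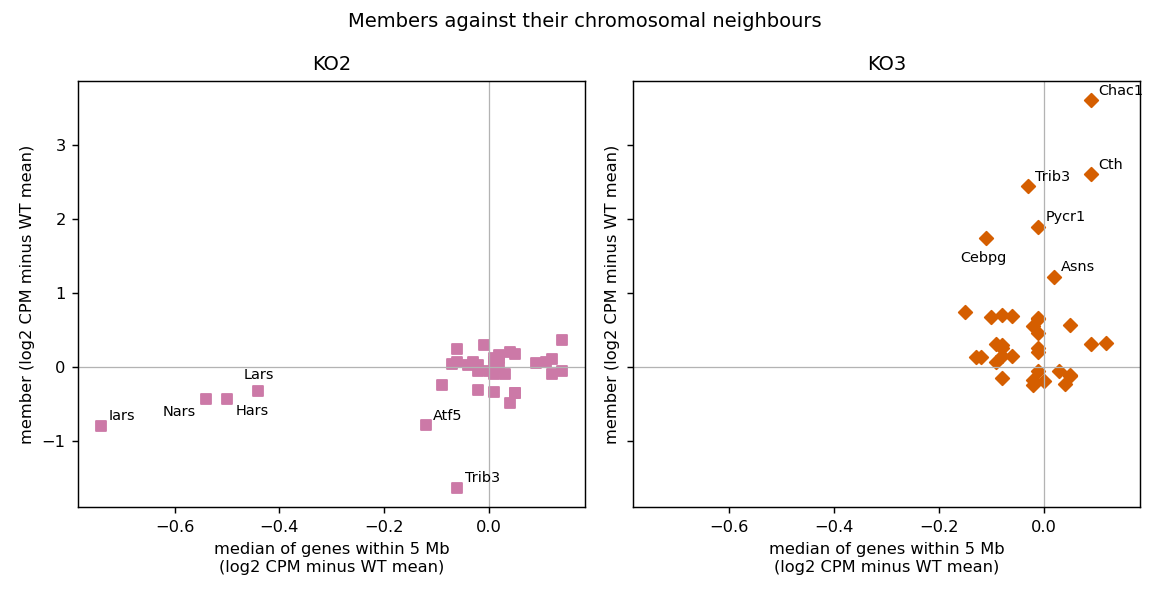
Each tested member's TMM-scaled log2 CPM minus the WT mean (vertical) against the median of the same value over genes within 5 Mb (horizontal), in KO2 on the left and KO3 on the right, on shared axes. In KO2 Iars, Nars, Hars and Lars lie low on both axes, and in KO3 the high members lie above neighbours near 0.

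Every tested member with the response element letters had its highest value in KO3. Of the 12 members with a match, 11 were tested, and KO3 was the highest library for 11 of 11, where 28.9% of all tested genes had their highest value. Their KO3 levels relative to the WT mean had a median of 0.32 on the log2 scale and ran from 0.15 to 3.61. Of the 17 members with a window and no match, KO3 was highest for 11, with a median of 0.15 and a range from -0.25 to 1.74, and Cebpg was the member at the upper end. Of the 8 members without a window, which include Cth, Nars and Cars, KO3 was highest for 4, with a median of 0.18. Some margins were small, as KO3 was 1.08 times the next library for Aars, Got1 and Pck2. The members were listed by function with earlier results of these data known, and these counts were not tested.

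Other genes of the pathway were read from lists of the same kind. Further ATF4 targets, mostly amino acid carriers and one-carbon enzymes, were 24 genes, of which 18 were tested, and none passed edgeR's test. KO3 was their highest library for 16 of 18, where it was for 28.9% of all tested genes. The exceptions were Jdp2, highest in KO2, and Mthfd1l, highest in WT2. KO3 was at least 1.5 times the next library for 9, where it was for 2.02% of all tested genes. Nupr1, a small stress-induced chromatin protein, had 6.61, 3.62 and 50.8 CPM in the KO lines, against 2.20, 6.98 and 3.01 CPM in the WT lines, and KO3 was 7.28 times the next library (log2 fold change 2.27 ± 1.10 SE, adjusted p = 0.567, edgeR). Sesn2, a leucine sensor that restrains mTORC1, had 16.1, 22.4 and 59.5 CPM in the KO lines, against 11.7, 23.8 and 10.8 CPM in the WT lines (1.05 ± 0.58 SE, adjusted p = 0.606, edgeR). Slc6a9, a glycine carrier, had 7.11, 4.61 and 48.2 CPM in the KO lines, against 4.73, 9.23 and 3.95 CPM in the WT lines (1.69 ± 0.96 SE, adjusted p = 0.613, edgeR). In all 3 genes KO3 was set off and KO1 and KO2 lay within the WT range. Among 9296 genes of mean 5 CPM or more, 33 had KO3 at least 2 times the next library. In the first 20 of these by that ratio there were 4 members, Trib3, Cth, Cebpg and Pycr1, and 6 further ATF4 targets, Nupr1, Slc7a3, Gpt2, Slc6a9, Slc1a4 and Sesn2. The lists were made with earlier results of these data known, so these counts are not independent of the ranking and were not tested.

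Genes that act ahead of ATF4 were mixed in KO3. Of 16 genes for eIF2, its kinases, its exchange factor and its phosphatase, none passed edgeR's adjusted test and 2 had an unadjusted p under 0.05, where 9.45% of all tested genes had. KO3 was above the WT mean for 7 of the 16 in plain CPM and for 2 on the TMM-scaled log2 scale. Eif2ak2, the kinase PKR that senses double-stranded RNA, had 61.7, 72.9 and 63.0 CPM in the KO lines, against 51.0, 47.7 and 48.5 CPM in the WT lines, with no overlap and KO higher, where 10.6% of all tested genes were (0.41 ± 0.11 SE, adjusted p = 0.479, edgeR). Eif2s1, the phosphorylated subunit of eIF2, had 191, 179 and 185 CPM in the KO lines, against 214, 195 and 208 CPM in the WT lines, without overlap and KO lower, where 8.68% were (-0.17 ± 0.06 SE, adjusted p = 0.499, edgeR). Eif2b3, a subunit of the exchange factor, had the next smallest p (-0.16 ± 0.07 SE, adjusted p = 0.538, edgeR). Eif2ak4, the kinase for amino acid shortage, had 69.6, 79.7 and 64.2 CPM in the KO lines, against 63.5, 61.3 and 63.6 CPM in the WT lines. In plain CPM KO was again higher without overlap, but KO3 and WT3 nearly met. On the TMM-scaled log2 scale its groups overlapped, with KO3 at -0.03 and WT1 and WT3 at 0.01 from the WT mean. Eif2ak3, the kinase for endoplasmic reticulum stress, had 113, 77.3 and 65.0 CPM in the KO lines, against 81.8, 69.04 and 81.0 CPM in the WT lines. In plain CPM, 2 of the 16 genes, Eif2ak2 and Eif2ak4, had every KO library above every WT library. In 3, Eif2s1, Eif2b3 and Eif2s3x, every KO library lay below. The list's median in KO3 was -0.16 from the WT mean on the TMM-scaled log2 scale. DESeq2 called Eif2ak2 without KO2 (log2 fold change 0.30, adjusted p = 0.0421), in a fit that called 5.95% of all genes. It called Eif2s2 without KO3 (-0.24, adjusted p = 0.0297), in a fit that called 2.12%. In the same settings edgeR called neither gene, with adjusted p-values of 0.194 for Eif2ak2 and 0.581 for Eif2s2.

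Endoplasmic reticulum chaperones and sensors, 20 genes, had a median of -0.24 in KO3 and 0.23 in KO2 from the WT mean, the reverse of the regulators' 0.68 in KO3 and -0.36 in KO2. KO2 was the highest library for 15 of the 20, where 26.3% of all tested genes had their highest value. Xbp1, the factor of the IRE1 arm, had 65.9, 274 and 73.9 CPM in the KO lines, against 78.8, 102 and 68.7 CPM in the WT lines, with only KO2 set off (0.74 ± 0.62 SE, adjusted p = 0.732, edgeR). Canx and Manf, a chaperone and a secreted stress protein, had the smallest p-values of the list beside their log2 fold changes of -0.12 and -0.18. With KO2 left out, DESeq2 called 5 genes of the list lower in KO, where 5.95% of all genes were called in either direction and 2.27% were called higher in KO. In the same setting edgeR called none of the 5, with adjusted p-values from 0.194 to 0.205. The 5 were, with DESeq2 values, Hsp90b1 (-0.31, adjusted p = 0.00408), Pdia6 (-0.34, 0.00503), Hspa5 (-0.22, 0.01605), Manf (-0.29, 0.03415) and Creld2 (-0.30, 0.0424). The list's edgeR median was -0.25 without KO2, against -0.07 with all libraries. The 17 mitochondrial synthetases had a median of 0.07 in KO3. Lars2, for mitochondrial leucine, had 227, 217 and 315 CPM in the KO lines, against 343, 361 and 340 CPM in the WT lines (-0.48 ± 0.14 SE, adjusted p = 0.481, edgeR). All its KO libraries lay below all WT libraries, where 8.68% of all tested genes did. DESeq2 called Lars2 without KO3 (-0.64, adjusted p = 7.83e-20), in a fit that called 2.12% of all genes, and did not with all libraries (adjusted p = 0.0755). In edgeR without KO3, Lars2 was at -0.65 with an adjusted p of 0.465 and was not called. That setting leaves out the KO library nearest to the WT lines. Tars2, for mitochondrial threonine, was called by DESeq2 without KO2 (0.22, adjusted p = 0.0466), in the fit that called 5.95% of all genes. It was not called by edgeR without KO2 (adjusted p = 0.194). Vars2 and Ears2 followed, at 0.18 and -0.29. Of the 3 scaffold genes of the synthetase complex, Aimp2 had 68.1, 64.5 and 71.0 CPM in the KO lines, against 75.7, 84.0 and 78.8 CPM in the WT lines (-0.25 ± 0.07 SE, adjusted p = 0.479, edgeR). Its groups did not overlap and KO was lower, where 8.68% of all tested genes were, while Aimp1 and Eef1e1 overlapped between groups.

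**Figure D5:**
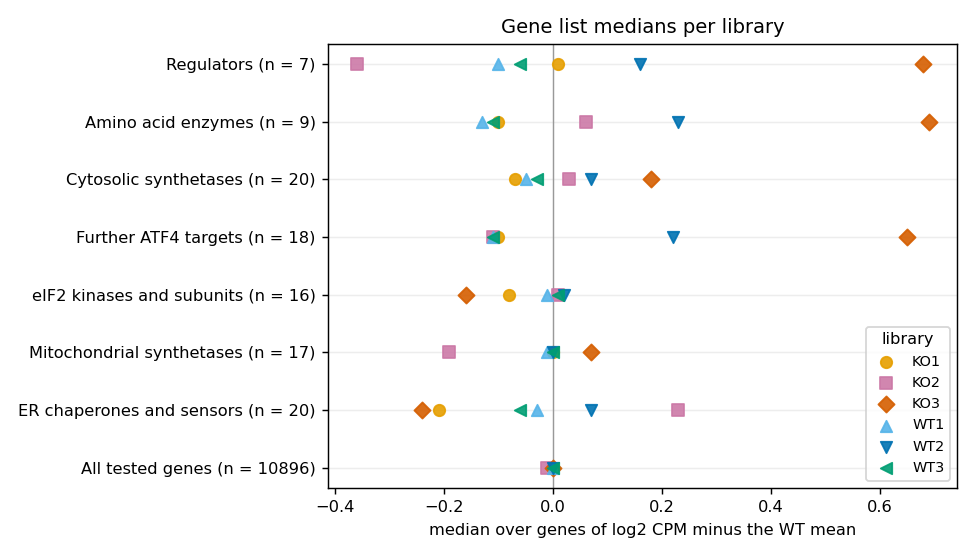
Median over the tested genes of each list of TMM-scaled log2 CPM minus the WT mean, 1 symbol per library. KO3 lies between 0.65 and 0.69 for regulators, amino acid enzymes and further ATF4 targets and below 0 for the eIF2 and endoplasmic reticulum lists, and all tested genes lie at 0.

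Per length of transcript, the synthetases and Atf4 were abundant and the feedback regulators scarce in both groups. CPM per kilobase of the principal transcript was highest for Kars, with 230 ± 13.1 in KO and 246 ± 6.11 in WT lines (SD, n = 3 each), followed by Atf4 with 223 ± 20.5 in KO and 226 ± 20.5 in WT lines. Their mean ± SD ranges overlapped in both groups. Vars, Gars and Nars came next, at 212, 187 and 184 CPM per kilobase over all libraries, and Cars was the lowest synthetase at 41.0. Trib3 averaged 14.6 ± 18.7 in KO and 6.30 ± 0.237 in WT lines, and Chac1 4.57 ± 5.64 in KO and 0.841 ± 0.267 in WT lines (SD, n = 3 each). The spread within the KO group was thus larger than the KO mean for these 2 genes. Over the 36 tested members the SD of log2 CPM was larger in KO than in WT lines for 32 (88.9%), and over all tested genes for 83.1%, with median SDs of 0.25 in KO and 0.11 in WT lines for the members.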

How the data were processed

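RNA sequencing of 6 mouse cell lines, 3 KO and 3 WT, was analysed from the authors' deposited table of raw counts per gene. Trim Galore, STAR, DESeq2 and the build GRCm38 are named per the submitters' processing notes, without versions. For the counting tool, annotation and strand setting, the sources used here state nothing. The table held 25965 rows, of which 66 repeat a symbol, and library totals ran from 17859519 to 24108563.

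From the counts, CPM were computed as count over library total. Log2 levels relative to the WT mean use CPM scaled by TMM factors (0.968 to 1.036) with a prior count of 2. The test of KO against WT was edgeR 4.0.16's quasi-likelihood test (R 4.3.3, TMM scaling, filterByExpr, Benjamini-Hochberg adjustment over 10896 genes, adjusted p under 0.05, two-sided), and it was tested on simulated data. Error terms of fold changes are fold change over the root of the F statistic. DESeq2 1.42.0, limma-voom (limma 3.58.1), other scalings and filters, left-out libraries and a replicate block were alternatives. Replicate numbers are shared between groups in the labels, and deviations from group means correlated at 0.326, 0.643 and 0.457 for numbers 1, 2 and 3, while KO3 with WT1 correlated at 0.406 and KO1 with WT3 at 0.361. The block changed no call. Transcript lengths came from GENCODE M21 principal transcripts and promoters from RefSeq.

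Members and lists were chosen with earlier results of these data known, and the lists received no test. Fold change and error are printed for Atf4, Ddit3, the 4 members of each role with the smallest p and the 4 with the widest range, and of other lists up to 3 genes with the smallest p are named. Other values were picked after being seen.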

Additional observations from a re-analysis of the deposited data

How the results depend on the processing

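edgeR called 0 genes and 0 members under each of its alternatives (2 other scalings, 2 other filters, no robust estimates, the replicate block and left-out libraries), as did limma-voom. DESeq2 called 218 genes with all libraries, 684 without KO2, 277 without WT2, 340 without WT2 and KO2 and 245 without KO3 (an alternative chosen after seeing the data), and 1 member, Chac1, without KO2 (log2 fold change 2.92) and without WT2 and KO2 (3.07), against 0 members with all libraries. The regulators' median log2 fold change KO over WT was 0.67 without WT2 and KO2, in edgeR and in DESeq2. Leaving out each library in turn gave medians from -0.09 to 0.51 for regulators, 0.01 to 0.43 for amino acid enzymes and -0.05 to 0.07 for synthetases. The lowest for regulators and for enzymes was without KO3, where the regulators' median turned negative, against 0.27 and 0.24 with all libraries. With the replicate block they were 0.19, 0.20 and 0.00. The block gave 0.19 for Trib3, 0.80 for Cth and 1.63 for Chac1, and limma-voom gave 0.27, 0.93 and 1.58, against 1.16, 1.34 and 2.39. Members whose groups did not overlap numbered 4 with TMM-scaled CPM, where 8.51% of all tested genes lay wholly above and 11% wholly below. Such members numbered 3 to 9 with each library left out in turn, and 17 without WT2 and KO2. Groups of fewer libraries separate more easily, and the share over all tested genes was not computed for the left-out settings. The left-out counts therefore say nothing about the members in particular. Leaving out each library in turn moved the log2 fold change of Trib3 between -0.72 and 1.68, of Cth between -0.12 and 1.79 and of Atf4 between -0.09 and 0.05. Signs turned for Trib3 without KO3 (-0.72 in edgeR, -0.71 in DESeq2), for Cth without KO3 (-0.12 and -0.11) and for Atf4 without WT2 (0.05 in both tools), without KO1 (0.01) and without WT2 and KO2 (0.06 in both). Beyond the left-out library, the cause was not tested. At this depth, Vldlr at 0 counts could still reach 0.124 to 0.168 CPM by counting error alone.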

Other observations

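Genes outside the lists also had KO3 set off. Apold1, an endothelial early response gene chosen here after its values were seen because it led the ranking, had 2.24, 2.38 and 46.7 CPM in KO1, KO2 and KO3, against 3.69, 1.84 and 2.96 CPM in WT1, WT2 and WT3. Egr1, an immediate early transcription factor and likewise chosen after its values were seen, had 17.3, 16.6 and 58.5 CPM in the KO lines, against 11.4, 13.5 and 11.8 CPM in the WT lines. Neither gene was tested for this pattern.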
